A study of Mus musculus with 21 samples.

Results

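Megakaryocyte-erythroid progenitors (MEP) that carry the Etv6 changes S211I and P216L together were compared with MEP that carry S211I alone, so that the groups differ by P216L. The comparison uses 5 of the 21 libraries of the series, 3 from double-mutant MEP and 2 from S211I MEP, chosen by their labelled cell type and genotype. Another 5 MEP libraries, 3 of Etv6 P216L and 2 of wild type (WT), gave the change with P216L where S211I was absent. All cells came from mouse bone marrow by flow sorting, and their RNA was read with a low-input RNA sequencing kit. Each group is labelled by its Etv6 genotype and no treatment is labelled. The labels do not give age, zygosity, whether both changes sit on 1 allele, or which libraries share an animal, so the p-values measure the spread between these libraries, which may be technical.

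Etv6 is a transcriptional repressor of the ETS family, with a pointed domain through which it pairs with itself and other ETS proteins and a DNA-binding domain that reads GGAA cores. It is needed to keep adult stem cells in the marrow. In people, germline ETV6 changes cause inherited low platelet counts with a raised risk of leukaemia, and many of the altered proteins are lost from the nucleus. MEP are the marrow progenitors that give rise to red cells and to the platelet-forming megakaryocytes. The series title names a germline change that creates a nuclear export signal, and the labels do not say which of the changes it is.

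The double-mutant libraries held 4805997 to 8667242 counts and the S211I libraries 5347922 to 5492029. Erythroid genes were abundant in the sorted cells: summed CPM (counts scaled to the library's total) of 23 erythroid membrane and globin genes were 22615 to 24556 in double-mutant and 24511 to 25059 in S211I libraries. The sum was mostly 2 carbonic anhydrase genes of that list, Car1 at 8609 against 8143 CPM and Car2 at 9661 against 10717 CPM. Klf1, the erythroid Krüppel-like factor, was at 636 ± 53.04 CPM (SD, n = 3) and 677 ± 35.7 CPM (SD, n = 2). Levels differed within the list, with the anion exchanger gene Slc4a1 at 11.98 and 12.5 CPM. The 27 megakaryocyte and platelet genes summed to 173 to 210 CPM in the double mutant and 211.5 to 227 CPM in S211I, from the platelet glycoprotein gene Gp5 at 68.3 and 52.6 CPM to genes near 1 CPM such as Pf4, at 1.19 CPM in both groups.

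Etv6 itself was measured at 41.8, 29.0 and 31.6 CPM in the double-mutant libraries and at 46.7 and 35.7 CPM in the S211I libraries. P216L libraries held 24.9, 37.3 and 32.4 CPM, and WT libraries 23.4 and 32.7 CPM. The groups overlapped, and the difference between double mutant and S211I was -0.28 ± 0.23 on the log2 scale (SE; edgeR adjusted p = 0.81). Gene counts do not read the amino acid changes, so this level does not check the genotype labels.

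In double-mutant against S211I MEP, 15 of 10773 tested genes (0.139%) were lower and 0 higher at an adjusted p below 0.05. The test was edgeR's quasi-likelihood test with Benjamini-Hochberg adjustment over all genes. At an unadjusted p below 0.05, 474 genes were lower (4.4%) and 347 were higher (3.22%). Voom and DESeq2 called 4 and 5 genes higher. The median log2 fold change of all genes was 0.00246 and the quartiles were -0.20 and 0.18. Without double-mutant replicate 1 or 2, 4 genes passed, all among the 15. Without double-mutant replicate 3, 8 passed, 7 of them among the 15. Fits without 1 S211I library left 1 library in that group, so their counts are not given. The genes with the smallest p-values were Mbd2, Qk, Cul3 and Ybx3, and the first 3 of these passed in 12 of 12 alternative fits. Ybx3 passed in 11, and each of the other 11 genes in 5 to 8.

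**Figure D1:**
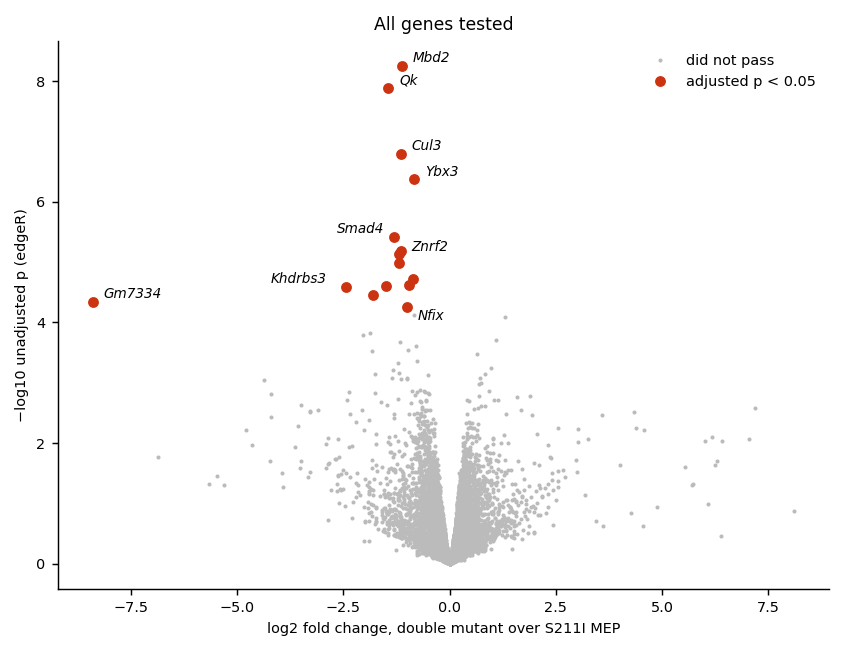
Each point is 1 of 10773 genes, with its log2 fold change (double mutant over S211I MEP) on the x axis and the −log10 of its unadjusted p from edgeR on the y axis. The 15 genes that passed are red and all lie left of 0, and the fitted value of Gm7334, which had 0 counts in all double-mutant libraries, depends on the prior count.

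Mbd2 (Entrez 17191), a protein that binds methylated CpG and joins the NuRD co-repressor to DNA, was at 210, 174 and 213 CPM in the double-mutant libraries. In S211I it was at 416 and 449 CPM, in P216L at 409, 381 and 373 CPM, and in WT at 457 and 485 CPM. The double-mutant libraries were the lowest 3 of 10. The change from S211I was -1.12 ± 0.12 on the log2 scale (SE; edgeR adjusted p = 5.9e-05), from 432 ± 23.5 (SD, n = 2) to 199 ± 21.97 CPM (SD, n = 3).

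Qk (Entrez 19317), an RNA-binding protein of the STAR family that controls splicing and RNA stability, was at 65.6, 64.3 and 63.9 CPM in double-mutant MEP. S211I libraries held 181 and 170 CPM, P216L libraries 157, 150 and 102 CPM, and WT libraries 123 and 134 CPM. Double-mutant values were nearly equal and below all 7 others, and the S211I values were the highest of the 10. The change from S211I was -1.44 ± 0.16 on the log2 scale (SE; edgeR adjusted p = 7.0e-05).

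Khdrbs3 (Entrez 13992), another STAR-family splicing regulator, was at 3.53, 5.30 and 10.7 CPM in the double mutant against 26.8 and 45.1 CPM in S211I. In P216L it was at 48.0, 24.1 and 20.5 CPM and in WT at 26.2 and 34.3 CPM. Its fold was the largest of the 14 passing genes with counts in both groups, at -2.43 ± 0.41 on the log2 scale (SE; edgeR adjusted p = 0.023).

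Cul3 (Entrez 26554), the scaffold of the ubiquitin ligases that take BTB-domain adaptors, was at 77.5, 77.8 and 79.2 CPM in the double mutant and at 179 and 168 CPM in S211I. P216L libraries held 188, 153 and 137 CPM and WT libraries 141 and 180 CPM. All 3 double-mutant values lay below the other 7, and the change from S211I was -1.15 ± 0.15 on the log2 scale (SE; edgeR adjusted p = 0.00057). Znrf2, a RING-type ubiquitin ligase, fell in the same way, from 61.2 ± 3.92 CPM (SD, n = 2) to 27.6 ± 0.597 CPM (SD, n = 3; edgeR adjusted p = 0.011).

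Ybx3 (Entrez 56449), a Y-box cold-shock protein that binds DNA and mRNA, was the most abundant gene that passed. It was at 965, 739 and 804 CPM in the double mutant, 1508 and 1457 CPM in S211I, 1614, 1486 and 1441 CPM in P216L, and 1584 and 1505 CPM in WT. The groups other than the double mutant overlapped within 1441 to 1614 CPM. The change from S211I was -0.83 ± 0.11 on the log2 scale (SE; edgeR adjusted p = 0.0011), and its adjusted p was 0.058 without S211I replicate 1, the 1 of 12 alternatives in which it did not pass. Ybx3 and Etv6 lie on the same chromosome. Of the tested genes 1 starts between them, Smim10l1, whose log2 fold change was -0.06. Untested genes between them and the distance were not examined.

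**Figure D2:**
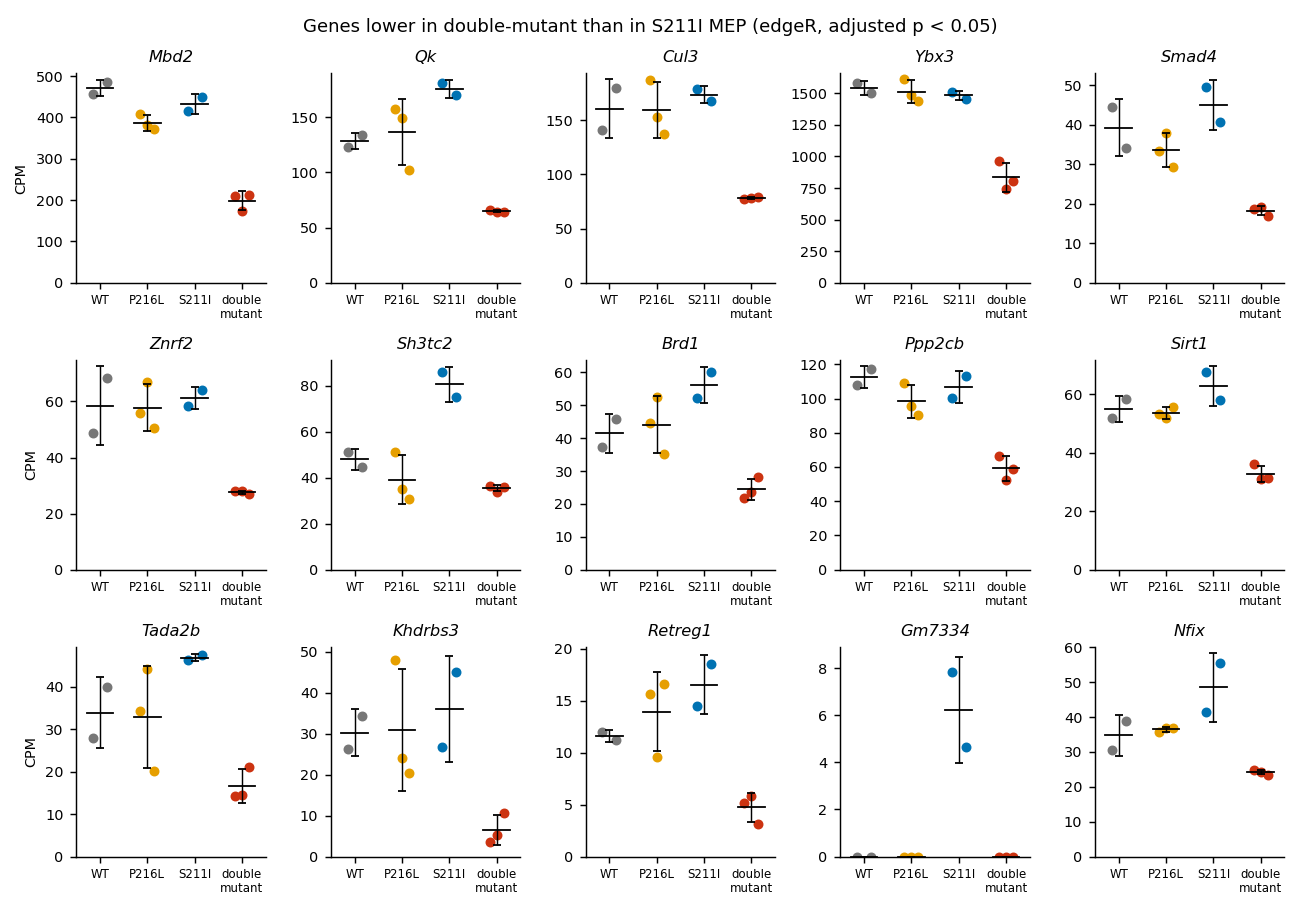
CPM in each of the 10 MEP libraries (points, by genotype) for the genes that fell in double-mutant against S211I MEP, with group means and SD bars. For Mbd2, Qk, Cul3 and Ybx3 the 3 double-mutant points lie below the 7 points of the other genotypes.

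Smad4, the shared partner of the receptor-activated Smads in TGF-beta and BMP signalling, was at 18.7, 19.1 and 16.9 CPM in the double mutant and 49.5 and 40.7 CPM in S211I. P216L libraries held 33.5, 38.0 and 29.4 CPM and WT libraries 44.4 and 34.2 CPM, so the double mutant was again below all 7. The change from S211I was -1.30 ± 0.21 on the log2 scale (SE; edgeR adjusted p = 0.0081). Nfix, a nuclear factor I transcription factor active in blood progenitors, fell from 48.5 ± 9.85 CPM (SD, n = 2) to 24.1 ± 0.610 CPM (SD, n = 3; edgeR adjusted p = 0.040). It passed in 5 of 12 alternatives, with adjusted p up to 0.45.

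Brd1, a bromodomain scaffold of histone acetyltransferase complexes, fell from 56.2 ± 5.49 to 24.5 ± 3.20 CPM (SD, n = 2 and 3; edgeR adjusted p = 0.014). Sirt1, an NAD-dependent deacetylase, fell from 62.8 ± 6.82 to 32.7 ± 2.83 CPM (SD, n = 2 and 3; edgeR adjusted p = 0.023). Tada2b, an adaptor of the SAGA acetyltransferase complex, was at 14.3, 14.4 and 21.2 CPM in the double mutant against 46.4 and 47.4 CPM in S211I (edgeR adjusted p = 0.023). The P216L libraries, at 34.2, 44.3 and 20.2 CPM, overlapped the double mutant for Tada2b.

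Ppp2cb, a catalytic subunit of protein phosphatase 2A, fell from 107 ± 9.35 to 59.1 ± 7.09 CPM (SD, n = 2 and 3; edgeR adjusted p = 0.023). Retreg1, a receptor for autophagy of the endoplasmic reticulum, was at 5.19, 5.88 and 3.16 CPM against 14.5 and 18.5 CPM (edgeR adjusted p = 0.029). Sh3tc2, a protein of endosomal recycling, was at 36.4, 33.9 and 35.9 CPM in the double mutant and 86.0 and 75.3 CPM in S211I (edgeR adjusted p = 0.011). For Sh3tc2 the S211I libraries were the ones apart, since P216L held 51.3, 35.3 and 30.9 CPM and WT 51.4 and 44.8 CPM.

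Gm7334, a transcribed pseudogene, had 42 and 26 counts in the S211I libraries and 0 in the double-mutant, P216L and WT MEP libraries. Against a floor of 3 counts over the summed double-mutant libraries it was at least 43.1-fold lower in the double mutant. A pseudogene can share reads with its parent gene, and DESeq2 gave it an adjusted p of 0.69, so its call is uncertain.

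Apart from Gm7334, S211I exceeded the double mutant by 1.77- to 5.39-fold in the 14 passing genes, with a median of 2.25. In 12 of the 15 passing genes all 3 double-mutant libraries lay below the 7 other MEP libraries, and Sh3tc2, Tada2b and Gm7334 were the exceptions. Over all tested genes 95 had that order (0.882%) and 129 the reverse (1.2%). The 15 genes were selected for low values in these same double-mutant libraries, so their order is in part set by the selection. Against the 2 S211I libraries alone, the 3 double-mutant libraries lay below in 14.8% of tested genes and above in 15.3%.

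The promoters of Qk and Tada2b are shown because Etv6 reads GGAA cores and Tada2b holds the longer ETS sequence CCGGAAGT while Qk, the gene with the second smallest p, does not. Each is the 250 bases before the RefSeq start on the minus strand of GRCm38.p6, chr17:10319362-10319611 for Qk and chr5:36484286-36484535 for Tada2b, read 5′ to 3′ in the direction of the gene. Capitals mark the GGAA core on either strand (written TTCC where it is on the other strand), 1 in Qk and 2 in Tada2b.
Qk: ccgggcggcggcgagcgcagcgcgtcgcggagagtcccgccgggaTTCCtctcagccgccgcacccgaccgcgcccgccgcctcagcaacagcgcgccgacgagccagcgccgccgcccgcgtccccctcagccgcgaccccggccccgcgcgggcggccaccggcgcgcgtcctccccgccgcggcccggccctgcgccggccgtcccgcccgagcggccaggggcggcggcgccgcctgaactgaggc
Tada2b: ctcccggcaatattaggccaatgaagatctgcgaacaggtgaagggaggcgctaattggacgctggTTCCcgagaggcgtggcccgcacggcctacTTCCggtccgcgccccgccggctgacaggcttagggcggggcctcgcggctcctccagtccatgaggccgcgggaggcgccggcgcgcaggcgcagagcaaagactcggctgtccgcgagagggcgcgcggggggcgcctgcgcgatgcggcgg
In windows from 250 bases before to 50 after the start, which RefSeq gave for 9 of the 15 genes and 8742 of those tested, the sequence CCGGAAGT on either strand was present in 1 of 9 (11.11%), Tada2b, 156 bases before its start. The share over all tested windows was 10.36%. The core GGAA was in 9 of 9 windows and in 96.65% of all. These shares are a description of letters in the windows and say nothing of binding.

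Where S211I was absent, these genes were not called different between P216L and WT, and neither was any other gene. Of all 10773 tested genes 0 passed, and 333 were higher and 219 lower at an edgeR unadjusted p below 0.05. P216L minus WT was -0.28 to 0.26 on the log2 scale over the 14 genes (SE 0.115 to 0.384), below 0 in 9 and above 0 in 5, with edgeR adjusted p from 0.976 to 0.998. Mbd2 was the 1 of the 14 with an unadjusted p below 0.05, at -0.28 ± 0.12 (SE; edgeR unadjusted p = 0.026). P216L minus WT and double mutant minus S211I share no library.

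The difference between the effects, double mutant minus S211I less P216L minus WT, was then fitted over all genes. It passed for 1 gene, Qk, in the lower direction (0.00928% of genes) and for 0 in the higher, with 608 genes at an unadjusted p below 0.05 (5.64%), 237 higher and 371 lower. In Qk it was -1.54 ± 0.23 (SE; edgeR adjusted p = 0.013), with P216L minus WT at 0.09 ± 0.16. Without double-mutant replicate 2 or 3, P216L replicate 1, either S211I library or WT replicate 1 the count was 0. It was 2 without P216L replicate 2, 7 without P216L replicate 3 and 13 without WT replicate 3.

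In the next genes by p the same difference did not pass. It was -1.14 ± 0.21 in Cul3 (SE; edgeR adjusted p = 0.14), -0.84 ± 0.17 in Mbd2 (0.22) and -0.80 ± 0.16 in Ybx3 (0.22). Over the 14 genes it ran from -2.48 to -0.67, with adjusted p from 0.013 to 0.65. These genes were selected on libraries that also enter this difference, so their direction in it is not independent. Trnp1 led the higher direction at 5.31 (adjusted p = 0.23), with 2.49, 2.19 and 14.6 CPM in the double mutant and 9.38 and 7.87 CPM in WT, against at most 1.78 CPM in the single mutants.

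**Figure D3:**
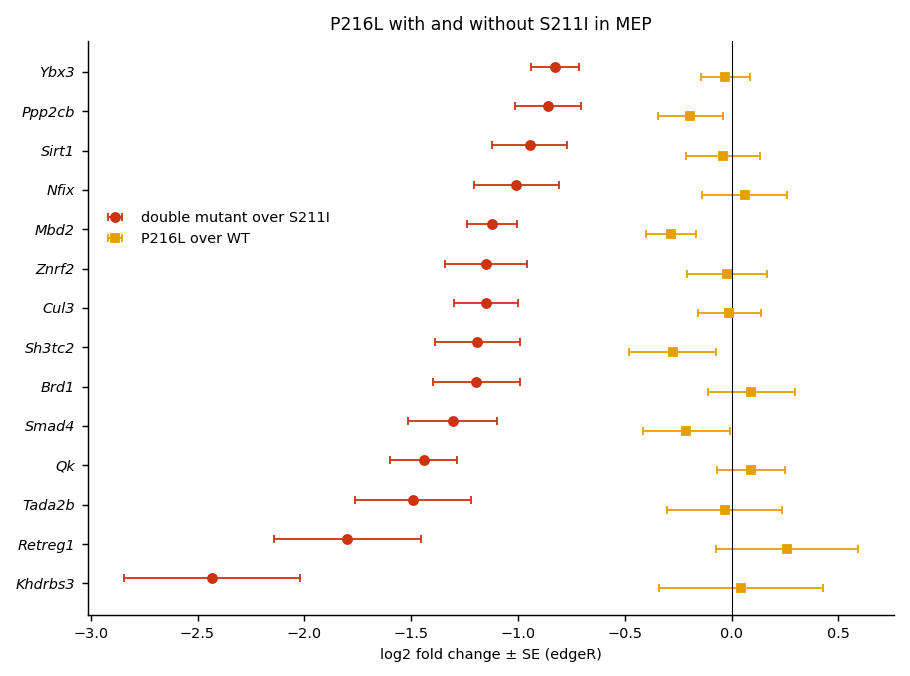
For the 14 passing genes with counts in every group, the log2 fold change (x axis) of double mutant over S211I (red circles) and of P216L over WT (orange squares), with SE bars. Red points run from -2.43 to -0.83, the values the genes were selected on, and orange points from -0.28 to 0.26.

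The double mutant also lay below the other genotypes for some of these genes, in comparisons that share its 3 libraries. Against WT, 7 of the 15 passed as lower, where 0.0743% of tested genes did. Against P216L, 7 passed as lower, where 0.102% did. Mbd2 was lower by 1.25 on the log2 scale than in WT (edgeR adjusted p = 9.1e-06) and by 0.96 than in P216L (0.00017). The S211I minus WT difference ran from -0.12 to 0.75 over the 14 genes, with edgeR adjusted p of 0.939 to 0.986. It was above 0 in 11 and below 0 in 3, and 3 had an edgeR unadjusted p below 0.05, Sh3tc2 (0.75), Qk (0.45) and Nfix (0.47). Over all 10773 tested genes 307 were higher and 204 lower in S211I than in WT at that threshold, and 0 passed. The genes were selected on the same S211I libraries, so the direction of S211I minus WT in them is not independent.

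No gene passed in the higher direction, and the 10 with the smallest p had adjusted p of 0.050 to 0.32. Bex4, a small brain-expressed X-linked family protein, was nearest, at 69.8, 71.1 and 85.5 CPM in the double mutant. S211I libraries held 32.0 and 29.1 CPM, P216L libraries 26.4, 21.99 and 38.1 CPM and WT libraries 41.6 and 21.6 CPM. The double-mutant values were the highest 3 of 10, and the difference from S211I was 1.31 ± 0.26 on the log2 scale (SE; edgeR adjusted p = 0.0505), passing in 5 of 12 alternatives. Against P216L it passed (adjusted p = 0.011), where 0.00928% of tested genes did in that direction.

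Plvap, a diaphragm protein of endothelial cells, was at 62.1, 73.9 and 64.2 CPM against 21.04 and 41.4 CPM in S211I (log2 fold change 1.10, adjusted p = 0.10). Of the 7 tested endothelial and stromal marker genes 6 had log2 fold changes below 0 (median -0.46). Their sum, 95.9 to 146 CPM in the double mutant and 67.5 to 107 CPM in S211I, was mostly the lipoprotein gene Apoe, at 108 against 74.2 CPM. The part of such cells in the Plvap value was not tested. The metallothionein gene Mt1 was at 302, 309 and 359 CPM against 192 and 223 CPM (0.64, adjusted p = 0.14). Hexa, a lysosomal hexosaminidase subunit, was at 59.0, 68.3 and 52.4 CPM against 27.7 and 33.3 CPM (0.97, adjusted p = 0.21). Double-mutant Hexa passed as higher against WT (1.23, edgeR adjusted p = 0.040), where 0.0278% of tested genes did. In Hexa P216L minus WT was 0.54 (edgeR adjusted p = 0.98). Mt1 and Hexa each passed against S211I in 4 of 12 alternatives. In 6 of the 10 genes the double-mutant libraries were above all 7 other MEP libraries, as in 129 of all tested genes (1.2%). The 10 were picked by p on these same libraries, so that order is in part set by the selection.

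**Figure D4:**
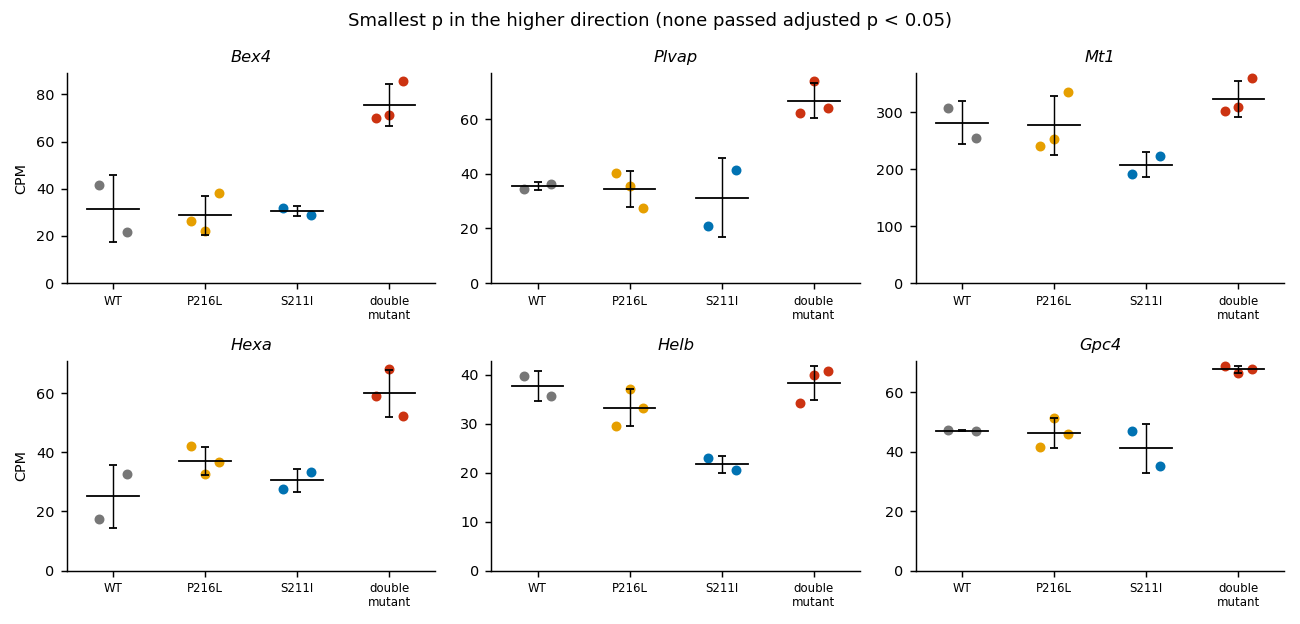
CPM (y axis) in each MEP library (points, by genotype) for the 6 genes nearest to passing in the higher direction, with group means and SD bars. The double-mutant points of Bex4 lie at 69.8 to 85.5 CPM, above the 7 other libraries, and its adjusted p of 0.0505 does not pass.

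Lists of genes by pathway and cell type were described by counts and medians. Of 31 lists with 571 tested members, 3 held a passing gene, 1 each: Cul3 in the cell cycle list, Mbd2 in the Etv6 co-repressor list and Smad4 in the TGF-beta list. No member passed in the other lists, and for them the values below are those at an unadjusted p below 0.05, to be read beside 4.4% lower and 3.22% higher over all genes.

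Erythroid genes gave no passing member, though Zfpm1 passed in 5 and Epb42 in 3 of 12 alternatives. The 18 erythroid transcription factors had a median log2 fold change of 0.0003, with 2 lower at an unadjusted p below 0.05. Zfpm1, the GATA1 partner FOG1, was at 62.8 against 124 CPM (-0.98 ± 0.22, SE; edgeR adjusted p = 0.13) and Myb at 442 against 535 CPM (adjusted p = 0.60). Gata1 was at 480 ± 36.9 CPM (SD, n = 3) and 448 ± 11.2 CPM (SD, n = 2).

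In the list of 23 erythroid membrane and globin genes the median was -0.15, and -0.26 to -0.10 over the alternatives, the lowest of them without S211I replicate 2. At the unadjusted threshold 2 members were lower, among them Epb42, which belongs to the membrane skeleton (-1.005, adjusted p = 0.25). Of 17 heme genes 2 were lower at that threshold, among them the mitochondrial transporter Abcb10 (-0.44), and Slc25a39 (0.38) was higher. Of 16 iron genes, the transferrin receptor Tfrc (-0.39) and Ireb2 (-0.49), which binds iron-responsive elements, were lower.

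The megakaryocyte and platelet list had 19 of 27 members at testable levels. Of these 5 were lower and 0 higher at an unadjusted p below 0.05, with a list median of -0.14 (-0.32 without S211I replicate 2, -0.31 and -0.22 without double-mutant replicates 1 and 2, -0.25 without S211I replicate 1, -0.07 without double-mutant replicate 3 and -0.06 with voom). Itga2b, the platelet integrin alpha-IIb, was at 9.86 against 20.8 CPM (-1.08, adjusted p = 0.46), and its partner Itgb3 at 0.207 against 3.96 CPM (-4.20, adjusted p = 0.32). The tetraspanin Cd9 was at 5.51 against 13.9 CPM (-1.33, adjusted p = 0.23), and the homeobox gene Meis1 was at 4.21 against 8.80 CPM (-1.09, adjusted p = 0.62). Of the 19 tested members 11 had log2 fold changes below 0 and 8 above, among them Gp5 (0.38), Vwf (0.24) and Gp9 (0.20). The list's summed level in P216L and WT libraries was 195 to 224 CPM, which overlaps both groups given above. In bulk RNA, fewer cells of a type and less RNA per cell cannot be told apart.

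Of the stem cell genes 16 of 26 were tested, with 4 lower and 0 higher at the unadjusted threshold and a median of -0.23 (-0.60 without S211I replicate 2 and -0.30 to -0.21 over the other alternatives). Meis1 is in this list too, and Cd34 was at 3.46 against 14.9 CPM (-2.05, adjusted p = 0.37) and Flt3 at 2.05 against 6.67 CPM (-1.73, adjusted p = 0.51). Cd34 passed in 4 of 12 alternatives. The summed stem cell level, 825 to 1050 CPM in the double mutant, 1110 to 1174 CPM in S211I and 799 to 1140 CPM in P216L and WT, was mostly Kit. This receptor of stem cell factor is also expressed by MEP and was at 647 against 741 CPM (-0.20, adjusted p = 0.82).

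Among markers of other cells, the 11 B lymphoid genes summed to 13.5 to 28.6 CPM in the double mutant and 33.3 to 39.6 CPM in S211I, with 1 of 8 tested lower at the unadjusted threshold (Blnk, -1.45). T and NK cell genes summed to 6.46 to 15.2 and 14.6 to 20.2 CPM, and 0 of 3 tested were under that threshold. Neutrophil and monocyte genes summed to 53.4 to 97.0 and 49.2 to 124 CPM (0 of 15), and mast cell and basophil genes to 75.6 to 86.6 and 78.9 to 101 CPM (0 of 4). Of 7 tested endothelial and stromal genes 0 were under the unadjusted threshold in edgeR. Mcpt4 of the mast cell list was at 0 in all MEP libraries. Of 4 tested sex-linked genes 1 was lower at the unadjusted threshold, and summed Y-linked genes were at 224 to 311 CPM over the MEP libraries. The part of these cells in the gene differences was not tested.

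In the cell cycle list 22 members were tested, with 4 lower, Cul3 among them, and 2 higher at an unadjusted p below 0.05. The D-type cyclins, which drive entry into the cycle, had log2 fold changes of different sign. Ccnd1 was at 14.3, 21.1 and 25.2 CPM in the double mutant and 3.35 and 10.2 CPM in S211I (1.58 ± 0.44, SE; edgeR adjusted p = 0.33), with 3.57 to 6.94 CPM in P216L and 4.07 and 2.15 CPM in WT. Its 3 double-mutant values were above the 7 others, and it passed against WT (2.76 ± 0.47, SE; adjusted p = 0.015), where 0.0278% of tested genes passed as higher. Ccnd2 (-0.44) and Ccnd3 (-0.36) were lower and their kinase Cdk6 (0.36) was higher at the unadjusted threshold, with adjusted p of 0.58 to 0.61.

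Of 29 tested mitotic genes 5 were lower at the unadjusted threshold, and the median was -0.09 (-0.11 to -0.01 over the alternatives). Without S211I replicate 1 the median was -0.01, without double-mutant replicate 3 it was -0.03, and 2 members were lower in each of these fits. The contractile ring protein Anln was at 101 against 144 CPM (-0.51, adjusted p = 0.32) and the spindle protein Prc1 at 165 against 215.98 CPM (-0.39, adjusted p = 0.48). Kif11, Top2a and Mki67 had log2 fold changes of -0.41, -0.33 and -0.32. Of 30 S phase genes, Rrm2, a subunit of ribonucleotide reductase, was the 1 lower (-0.32), and the median was -0.0041.

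All 38 cytosolic ribosomal protein genes had log2 fold changes above 0, with a median of 0.25 and 7 higher at the unadjusted threshold, and 32 of 33 oxidative phosphorylation genes were above 0 with a median of 0.15 and 2 higher. No member passed. Without double-mutant replicate 3 the ribosomal median was 0.09, with 32 of 38 above 0 and 0 higher at the unadjusted threshold, and the oxidative phosphorylation median was 0.13, with 28 of 33 above 0 and 0 higher. Without either S211I library 0 members of both lists were higher at that threshold, with ribosomal medians of 0.21 and 0.28. These transcripts are short: 32 of the 38 and 24 of the 33 were in the shortest quintile of tested genes. With transcript length as an offset the medians were 0.12 and 0.04, with 34 of 38 and 25 of 33 above 0. Of 26 Myc target and nucleolar genes 17 were above 0 and 9 below, with a median of 0.06, which was 0.01 without double-mutant replicate 3. At the unadjusted threshold 3 were higher, Npm1 (0.32), Fbl (0.34) and Ncl (0.23). In the glycolysis list, Gapdh (0.33) and Ldha (0.34) were higher and Aldoc lower among 23 genes.

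Length went with the fold change across all genes. The median log2 fold change went from 0.114 in the shortest quintile of transcripts (up to 1796 bases) to -0.13 in the longest (from 5072 bases), and Spearman's rho over 10125 genes was -0.27, a description across genes of the same libraries. At an unadjusted p below 0.05, the shortest quintile held 25 lower and 120 higher genes and the longest 175 lower and 32 higher. For S211I minus WT the medians ran from -0.101 in the shortest to 0.073 in the longest quintile. The passing genes had a median length of 4110.5 bases against 3107 for all genes. With length as an offset 19 genes passed, 17 lower and 2 higher, among them 14 of the 15.

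Cofactors and pathways linked to Etv6 gave few differences. Of 24 co-repressor and chromatin genes, Mbd2 fell and Mbd3, the NuRD subunit of the same family, was at 179 against 142 CPM (0.33, adjusted p = 0.58). The co-repressor genes Ncor1 and Hdac3 had log2 fold changes of -0.17 and -0.04. In 30 nuclear export and import genes the 1 under the unadjusted threshold was Nup160 (-0.49), and the exportin Xpo1 was at -0.26 ± 0.18 (SE; edgeR adjusted p = 0.75). Of 15 tested ETS family genes 0 had an unadjusted p below 0.05 in edgeR, and their log2 fold changes ran from -0.43 to 0.85.

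In the TGF-beta list of 17 tested genes, Smad4 fell, and Tgfbr3, the type of receptor that presents ligand (-0.68), and Id2, a BMP target (-1.12), were lower at the unadjusted threshold. The list median was -0.10. It was 0.01 with transcript length as an offset, -0.40 without S211I replicate 2, -0.03 without S211I replicate 1, -0.22 without double-mutant replicate 1 or 2 and -0.18 without replicate 3. In the erythropoietin and Jak-Stat list of 16, Gab1 (-0.83), Stat3 (-0.73) and Tfrc were lower and the erythropoietin receptor Epor (0.33) higher.

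In the stress and immune lists no member passed. The genes named here were under the unadjusted threshold, where 4.4% of all genes were lower and 3.22% higher. Of 16 p53 targets, Sesn2 (-1.21), Trp53inp1 (-1.43) and Eda2r (-1.94) were lower. In the unfolded protein response list of 18, Atf4 (0.53) and its target Asns (0.38) were higher and the sensor Ern1 (-0.96) lower. Of 14 immediate early genes Btg2 was lower (-1.35), of 22 interferon genes Oasl2 (-1.72), and of 23 antigen presentation genes H2-K1 (-0.35), B2m (-0.29) and Psmb9 (-0.44). In 20 cholesterol synthesis genes Fdft1 was higher (0.53). Of 21 platelet cytoskeleton genes, Actb (0.46), Rhoa (0.35) and Rac1 (0.29) were higher and Tuba8 (-2.21), Tpm4 (-1.83) and Zyx (-0.95) lower.

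**Figure D5:**
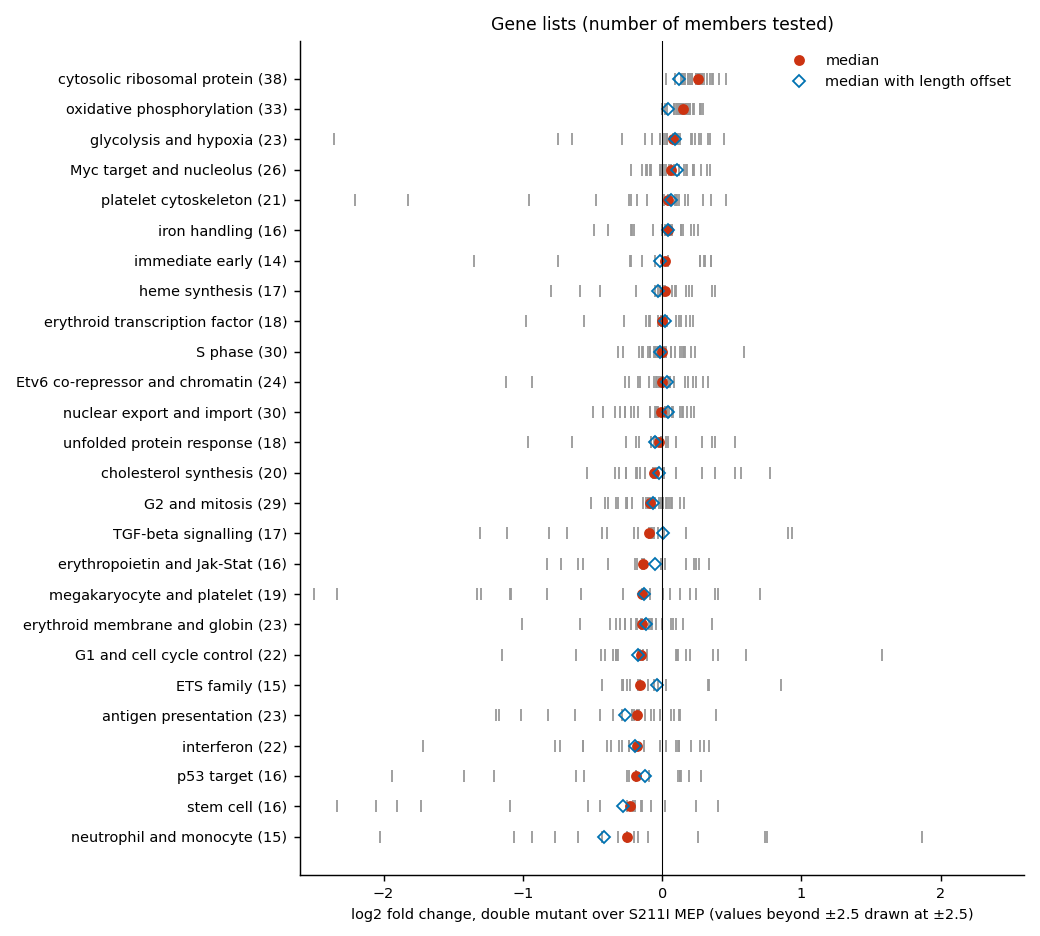
Log2 fold change (double mutant over S211I MEP, x axis) of each tested member (grey ticks) by gene list with at least 10 tested members, with the list median (red) and the median with a length offset (blue diamonds). The cytosolic ribosomal protein genes all lie above 0, with a median of 0.25, and the 3 passing members are Cul3, Mbd2 and Smad4.

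Values of the leading genes in the hematopoietic stem cell libraries of the same genotypes are given without a test. Mbd2 was at 371, 160 and 504 CPM in double-mutant stem cells and at 72.4 and 434 CPM in S211I, and Qk at 174, 241 and 94.2 CPM and at 4.52 and 112 CPM. Cul3 was at 126, 106 and 72.4 CPM and at 195 and 153 CPM. Some of these libraries were shallow, with 369439 counts in double-mutant stem cell replicate 2 and 442014 in S211I stem cell replicate 1. In that S211I library Qk had 2 counts and Cul3 86, and Cul3 had 39 in that double-mutant library. The library labelled stem cell S211I replicate 2, the second value in each pair, held 13154016 counts and stands apart from the other stem cell libraries. It had 16585 genes detected, against 7070 in S211I stem cell replicate 1 and 12713 and 15740 in the S211I MEP libraries. Its Etv6 level by plain totals was 46.5 CPM, against 258 CPM in replicate 1 and 46.9 and 36.4 CPM in S211I MEP. Whether its cell type label is right was not tested.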

How the data were processed

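Sorted bone marrow cells were extracted with NucleoSpin RNA XS and libraries made with SMART-Seq v4, per the labels' protocols. The authors deposited estimated counts per Entrez gene, made with Salmon on GRCm39 after FastQC, per the submitters' processing notes; no version is given in the sources used here. The genotype field has P211I for the change that titles call S211I, the form used here. Counts were rounded to whole numbers. Symbols came from a RefSeq table of GRCm38.p6 (30211 of 30519 genes; the rest held 0.044% of counts).

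All 10 MEP libraries were fitted together with edgeR 4.0.16 (R 4.3.3): TMM factors, filterByExpr (minimum count 10, minimum total 15), robust quasi-likelihood, 6 residual degrees of freedom, and Benjamini-Hochberg adjustment at 0.05 over 10773 genes. CPM values use TMM library sizes, except marker sums and stem cell values, which use plain totals. SE is the absolute log2 fold change over the square root of F. No 2 libraries of a compared group were copies (chi-square per degree of freedom 4.63 to 10.4).

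Named genes were Etv6, genes past the threshold (up to 15 per direction, filled to 10 by p), the leading genes of the difference between effects, and each list's leading member per direction; further list members were named after their values were seen. The members and lists were chosen with earlier results of these data known. Alternatives were RLE factors, no low-count filter, a replicate block, voom (limma 3.58.1), DESeq2 1.42.0, only the compared groups, each library left out, and, added after the data were seen, a transcript-length offset (longest coding transcript, GENCODE). The tests were tried on simulated data. Some named genes are not reported here.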

Additional observations from a re-analysis of the deposited data

Results flagged for a closer look

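Qk differed between the effect of P216L with S211I and without it, by a test of the difference itself: double mutant minus S211I less P216L minus WT was -1.54 ± 0.23 on the log2 scale (SE; edgeR adjusted p = 0.013). Its level was 64.6 ± 0.906 CPM in the double mutant (SD, n = 3), 176 ± 8.22 CPM in S211I (SD, n = 2), 136 ± 29.9 CPM in P216L (SD, n = 3) and 128 ± 7.55 CPM in WT (SD, n = 2). S211I minus WT was 0.45 ± 0.17 (SE; edgeR unadjusted p = 0.017), so both the low double-mutant and the high S211I values enter the difference. The call held in 9 of 16 alternatives.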

How the results depend on the processing

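The 15 calls were 51 without the low-count filter (22203 genes tested), 33 with voom and 28 with DESeq2. With only the 2 compared groups they were 28, and with 1 double-mutant library left out, where fewer samples were fitted, 4 to 8. These counts hold both directions and can include genes outside the 15. Counts from fits without 1 S211I library, which left 1 library in that group, are not given. With RLE factors 16 and with the length offset 19 genes passed. For the difference between effects, the 1 call was 32 without the filter, 7 with voom, 12 with DESeq2 and 0 to 13 with 1 library left out; the cause of these moves was not tested. A group left with 1 library is assumed to vary like the others. Over 717 alternative values of 60 named genes 0 reversed, 61 lost and 32 gained the threshold; of 96 values of 6 genes in the difference between effects 0 reversed, 7 lost and 12 gained it.

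With replicate number as a block, 10 genes passed (8 of the 15) and 0 in the difference between effects. In their deviations from the group mean, same-numbered libraries correlated at -0.092 to 0.034 in 12 pairs and others at -0.085 to 0.092 in 25. In groups of 2 libraries these deviations mirror each other, so the correlations cannot decide whether the numbers pair the samples. Depth in the compared groups was 4805997 counts or more, and its effect on detection of low genes was not measured.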
